A study of Mus musculus with 3 samples.

Results

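The genes described here carry long-chain fatty acids into heart cells, store them, control their use through PPAR receptors and break them down by beta oxidation. They are a list made by function, with a rule that uses no measured value, and comprise 40 of the 32285 genes measured, in 10 groups by role. Single-nucleus RNA sequencing had been done on mouse heart tissue 2 weeks after surgery, with 1 library for each of 3 groups. Sham-NS had sham surgery and NS, MI-NS had an infarct and NS, and MI-DAPA had an infarct and dapagliflozin, a drug that blocks glucose uptake in the kidney through SGLT2. The labels do not expand NS and give no strain, sex, age, dose, number of pooled hearts, feeding state or hour of collection. There were no replicates, so no difference below has a replicate check, and no test was possible. Brackets give 95% counting intervals, which do not cover differences between hearts or preparations.

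The healthy adult heart draws most of its energy from fatty acids. Lipoprotein lipase, Lpl, frees them from blood lipoproteins on the capillary wall, where Gpihbp1 holds the enzyme, and Cd36 and the binding proteins Fabp3 and Fabp4 take them up and carry them. Inside the cell they are joined to coenzyme A, passed into mitochondria by the carnitine shuttle and shortened there by repeated rounds of beta oxidation, while fatty acids themselves switch on many of these genes through the PPAR receptors.

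The libraries held 8871086 to 13873275 UMIs (distinct RNA molecules), and 5372 to 8296 nuclei per library were kept, with medians of 790 to 851 UMIs. The libraries differed in the median mitochondrial share (1.48% to 3.32%) and in the share of the nuclear transcript Malat1 (5.47% to 9.31%), and each pair shared 13 to 20 barcodes. Classes were rebuilt by clustering without the 40 genes and named from fixed markers, so each name means "like" that type. In each library 14 of 14 cardiomyocyte markers were at least 2-fold above the other nuclei, as were at least 17 of 18 vascular endothelial markers. Cardiomyocyte nuclei numbered 1612, 974 and 1436 (here and below, 3 values stand for Sham-NS, then MI-NS, then MI-DAPA), and vascular endothelial nuclei 1728, 932 and 971. Adipocyte nuclei numbered 2, 89 and 1, so they were read in MI-NS only, where 11 of 12 markers stood out and both Cidea and the brown adipocyte marker Ucp1 were at 0. Cardiomyocyte nuclei fell into different clusters by group: cluster 0, led by Ces1d and Cpeb3, held 1512, 271 and 735 of them, and cluster 5, led by the stress genes Myh7, Ankrd1 and Nppb, held 100, 703 and 701. Levels are in UMIs per 1000000 UMIs of the class (CPM) and are compared between classes or libraries for 1 gene at a time.

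Upstream sequences are shown for 3 places where the results below turn on members of the list: Pdk4, with the largest difference between groups among the members, Ucp3, which carries a receptor half-site, and the gap between Hadha and Hadhb, a pair of neighbouring genes that differed together. All 3 are RefSeq promoter sequence on GRCm38.p6, cut back to bases outside every annotated exon, 5′ to 3′ on the strand of the named gene, and capitals mark AGGTCA, the half-site bound by PPAR and other nuclear receptors. Pdk4 is shown at chr6:5496310-5496528 on the minus strand, Ucp3 at chr7:100472741-100472989 on the plus strand and Hadhb at chr5:30155163-30155247 on the plus strand. The last of these is the whole stretch of 85 bases between Hadha and Hadhb, which are transcribed away from each other.
Pdk4: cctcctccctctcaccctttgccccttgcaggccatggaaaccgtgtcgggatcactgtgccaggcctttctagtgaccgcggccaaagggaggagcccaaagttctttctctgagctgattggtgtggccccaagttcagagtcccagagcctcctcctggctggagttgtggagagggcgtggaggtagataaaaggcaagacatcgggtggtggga
Ucp3: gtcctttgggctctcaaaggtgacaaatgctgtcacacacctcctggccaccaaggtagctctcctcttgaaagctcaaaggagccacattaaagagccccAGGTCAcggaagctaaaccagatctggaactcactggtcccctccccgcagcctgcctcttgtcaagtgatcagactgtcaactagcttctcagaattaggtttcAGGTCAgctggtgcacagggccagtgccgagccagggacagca
Hadhb: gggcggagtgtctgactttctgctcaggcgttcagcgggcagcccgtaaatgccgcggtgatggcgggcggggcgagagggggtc
AGGTCA was searched on both strands in the 250 bases before the start. The Ucp3 window held it 2 times, beginning 149 and 44 bases before the RefSeq start. Of the 40 genes, 32 had a promoter entry, and 7 of these held at least 1 copy (Acadm, Cd36, Ucp3, Echs1, Acadvl, Plin5 and Cpt1a). Counted by promoter, as some genes have more than 1, 7 of 36 held it, against 14.0% of all 32851 promoters. The spaced pair AGGTCANAGGTCA, a PPAR type of element, was in 0 of the 36 member promoters and in 11 of all promoters. These are matches of letters and say nothing of binding.

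Cardiomyocyte nuclei had more Cpt1b, Mlycd and Acacb than vascular endothelial nuclei in every library, and less Cd36, Fabp4 and Gpihbp1. Of 36 members with at least 50 UMIs over both classes in every library (called measurable), 17 were at least 2-fold higher in cardiomyocyte nuclei in all 3 libraries, 3 were at least 2-fold lower and 16 were neither. Over all 6896 measurable genes, 12.5% were at least 2-fold higher and 26.2% at least 2-fold lower. Cardiomyocyte sums were larger, at 4010045, 2165118 and 3665817 UMIs against 1161739, 669331 and 649220. Genes high in cardiomyocyte nuclei thus reached 50 UMIs more readily. In MI-NS, Ppara passed on 79 and 0 UMIs and Ucp3 on 330 and 2. Acsl5, higher in endothelial nuclei, had 4 and 40 there and was not measurable. The 17 included Cpt1b, Mlycd and Acacb around the carnitine step, 5 of the 9 genes of the beta oxidation spiral, and the receptor Ppara with both coactivators, while the 3 were Cd36, Fabp4 and Gpihbp1, known from capillary endothelium. With TMM scaling factors, which set genes that differ most aside when scaling, the higher count was 26 of 36 and the lower count 3. These factors were 0.72 to 0.85 for cardiomyocyte and 1.16 to 1.28 for endothelial sums, which raises every ratio of this comparison. The shares of all genes above are on the CPM scale and do not apply to the TMM counts. Without endothelial cluster 8 (led by Prnd and Kit and described below) the counts were 16 and 3.

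**Figure D1:**
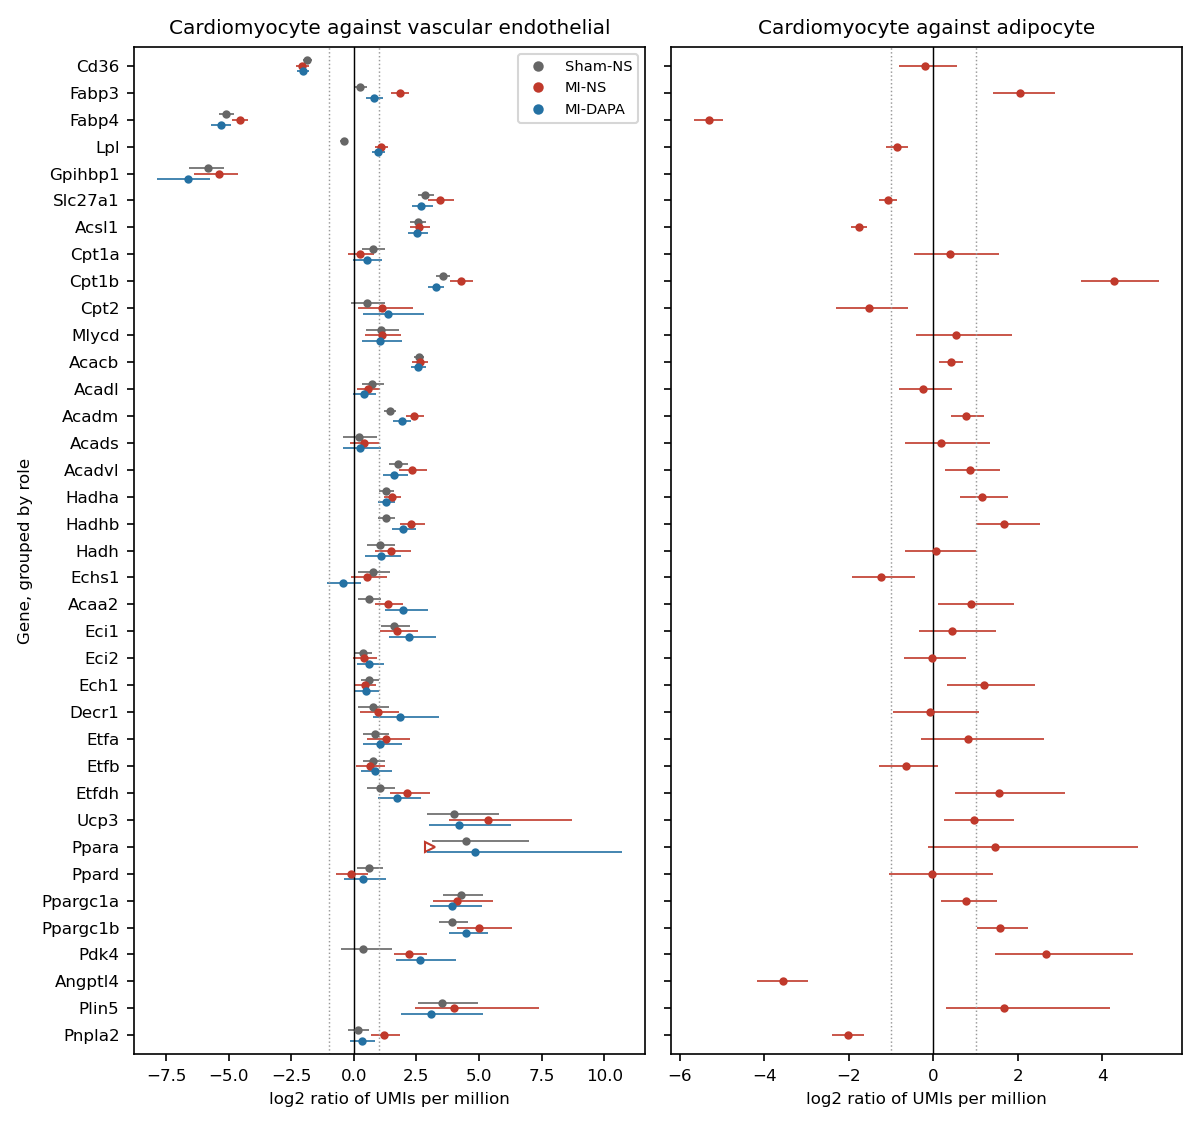
Log2 ratios of cardiomyocyte against vascular endothelial nuclei in each library (left) and against adipocyte nuclei in MI-NS, the only library with enough adipocyte nuclei (right), for members measurable there. Points are ratios, bars are 95% counting intervals, dotted lines mark 2-fold, and the open triangle is a lower bound for Ppara, which had 0 endothelial UMIs in MI-NS. Cd36, Fabp4 and Gpihbp1 lie left of the dotted line in all 3 libraries, and Lpl lies on both sides of 0.

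Among the uptake genes, Fabp4, a fatty acid carrier of capillary endothelium and fat cells, stood at 859.9, 991 and 676 CPM in endothelial nuclei, against 25.2, 42.5 and 17.2 CPM in cardiomyocyte nuclei. Gpihbp1, the anchor of lipoprotein lipase, stood at 288, 258 and 254 CPM in endothelial nuclei, and at 4.99, 6.00 and 2.46 CPM in cardiomyocyte nuclei. Cd36, the fatty acid translocase, was at 432, 418 and 427 CPM in endothelial nuclei and at 119, 101 and 104 CPM in cardiomyocyte nuclei. For all 3 genes the ranges of the classes over libraries did not overlap, and each was highest in vascular endothelial nuclei among the 8 classes compared in every library.

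Fabp3, the heart-type carrier, was higher in cardiomyocyte nuclei in all 3 libraries, but by unequal amounts: 155 against 131 CPM in Sham-NS, 388 against 108 in MI-NS and 207 against 117 in MI-DAPA. Slc27a1, a transporter that also activates fatty acids, stood at 531, 574 and 525 CPM in cardiomyocyte nuclei and at 73.2, 52.3 and 80.1 CPM in endothelial nuclei. Lpl changed sides. It was lower in cardiomyocyte than in endothelial nuclei of Sham-NS (321 against 425 CPM) and higher in MI-NS (429 against 202) and MI-DAPA (381 against 193), with log2 ratios of -0.40, 1.08 and 0.98.

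The genes that commit fatty acids to oxidation leaned to cardiomyocyte nuclei. Cpt1b, the muscle form of the carnitine palmitoyltransferase that admits fatty acids to mitochondria, stood at 1112, 1188 and 1251 CPM there and at 94.7, 61.3 and 129 CPM in endothelial nuclei, which gives log2 ratios of 3.55, 4.26 and 3.26. Cpt1a, the form of most other tissues, differed less, at 68.6, 73.9 and 64.4 CPM against 40.5, 61.3 and 44.7 CPM. Acacb, which makes the malonyl-CoA that restrains this step, was at 1143, 829 and 969 CPM against 188, 133 and 163 CPM. Acsl1, the main activating enzyme of the heart, was at 452, 495 and 482 CPM against 76.6, 80.7 and 83.2 CPM, whereas Acsl5, another activating enzyme, had at most 1.85 CPM in any library of cardiomyocyte nuclei and 38.7 to 59.8 CPM in endothelial nuclei.

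Among the regulators, Ppara, the receptor most tied to fatty acid oxidation, stood at 66.6, 36.5 and 65.2 CPM in cardiomyocyte nuclei. It had 3, 0 and 1 UMIs in endothelial nuclei, so that it was at least 8.14-fold higher in cardiomyocyte nuclei of MI-NS (floor of 3 UMIs over the endothelial class of that library), and the log2 ratio was 4.47 [3.13 to 6.98] in the first library and 4.82 [2.91 to 10.7] in the last. Its coactivator Ppargc1a had log2 ratios of 4.26, 4.13 and 3.91, and Ppargc1b, another coactivator, stood at 347, 406 and 534 CPM against 22.4, 12.0 and 23.1 CPM. Ppard, a receptor found in most tissues, was close between the classes, with log2 ratios of 0.60, -0.11 and 0.35. Ucp3, a mitochondrial carrier of the uncoupling protein family, had log2 ratios of 4.02, 5.35 [3.81 to 8.72] and 4.22, on 5, 2 and 4 endothelial UMIs.

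Part of what endothelial nuclei show of cardiomyocyte genes can be free cardiomyocyte RNA, which was measured with 9 genes that cardiomyocytes alone are known to make. In endothelial nuclei these stood at a median of 9.11%, 4.17% and 6.89% of their cardiomyocyte level, and at most at 28.2%, 17.8% and 27.0%. Members above that highest share in endothelial nuclei were 27 of 36, 28 of 37 and 22 of 37. No share over all genes stands beside these counts, so they do not set the members apart from other genes. Endothelial levels of Cpt1b, Ppara, Ppargc1a, Ppargc1b, Ucp3, Plin5, Slc27a1, Acsl1 and Acacb were not above it in any library, and those of Acaa2, Acadm, Decr1, Eci1, Hadhb and Pdk4 were not above it in MI-DAPA. The part of free RNA in them was not tested.

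In MI-NS, adipocyte nuclei had more of Fabp4, Angptl4, Acsl1 and Pnpla2, and cardiomyocyte nuclei more of Cpt1b, Fabp3 and Pdk4. Of 36 measurable members, 10 were at least 2-fold higher in cardiomyocyte nuclei and 7 at least 2-fold lower, against 16.6% and 24.9% of all 5873 measurable genes. With TMM factors these counts were 18 and 4, to which the shares of all genes, taken on the CPM scale, do not apply. The 7 were Fabp4 (42.5 against 1697 CPM, a 39.8-fold difference), Angptl4, Pnpla2, Acsl1, Slc27a1, Cpt2 and Echs1.

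Angptl4, a secreted inhibitor of lipoprotein lipase, stood at 268 CPM [log2 ratio of cardiomyocyte to adipocyte -3.57, -4.17 to -2.97] in adipocyte nuclei. Pnpla2, the lipase that opens stored triglyceride, was at 429.5 CPM, Acsl1 at 1686 CPM and Slc27a1 at 1208 CPM, with log2 ratios of -2.03, -1.77 and -1.08. Cpt2, the inner membrane transferase of the shuttle, was at 85.9 CPM with a log2 ratio of -1.53, and Echs1, the enoyl-CoA hydratase, at 107 CPM with -1.25, each on 20 or fewer adipocyte UMIs. Adipocyte nuclei shared Fabp4 with endothelial nuclei but had 113 CPM of Cd36, 3.63-fold below the endothelial level of MI-NS, and 0 UMIs of Gpihbp1.

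The 10 members at least 2-fold higher in cardiomyocyte than in adipocyte nuclei were Fabp3, Cpt1b, Hadha, Hadhb, Ech1, Etfdh, Ppara, Ppargc1b, Pdk4 and Plin5, of which Ppara and Plin5 rested on 2 and 3 adipocyte UMIs. Cpt1b was the furthest apart, at 1188 against 59.1 CPM [log2 ratio 4.27, 3.49 to 5.33]. The 9 genes read as free cardiomyocyte RNA stood in these adipocyte nuclei at a median of 4.75% of their cardiomyocyte level, and at most at 12.9%. Cpt1b, on 11 adipocyte UMIs, was not above that highest share, and 35 of 36 measurable members were. No share over all genes stands beside this count, and the part of free RNA was not tested. Hadha and Hadhb, the 2 subunits of the trifunctional protein of long-chain oxidation, were at 351 and 282 CPM against 156 and 85.9 CPM. Acacb was 1.33-fold higher in cardiomyocyte nuclei (829 against 623 CPM) and Lpl 1.83-fold lower (429 against 784 CPM).

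Across all 8 classes compared in every library, 37 members and 9425 genes in all had at least 50 UMIs over these classes in each library. Of the 37, 27 had their highest mean level in cardiomyocyte nuclei, against 14% of all genes, and for 20 the cardiomyocyte range over libraries did not overlap that of the next class, against 7.63%. In MI-NS, adipocyte nuclei stood above all 8 for 10 of the 37, against 18.8% of all genes.

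Within cardiomyocyte nuclei, MI-NS had the highest levels of the beta oxidation genes among the 3 libraries. In MI-NS against Sham-NS, 36 of 40 members were measurable (Gpihbp1, Acsl5 and the near-identical thioesterases Acot1 and Acot2 were not), and 28 were higher and 8 lower, with a median log2 ratio of 0.28 against 0.14 over all 8276 measurable genes, 60.3% of which were higher. TMM factors moved all ratios of this contrast down by 0.15, so that 22 members were higher and 14 lower, the same split as around the median of all genes. In MI-DAPA against MI-NS, 8 were higher and 28 lower, with a median of -0.26 against -0.16 over 8097 genes, 34.5% of which were higher, and with TMM factors 14 were higher and 22 lower. MI-DAPA against Sham-NS gave 19 higher and 17 lower, with a median of 0.06 against -0.04 and 45.5% of 8506 genes higher. The contrasts share libraries, so a high value in MI-NS alone makes both of its contrasts differ.

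Past 2-fold on the CPM scale in MI-NS against Sham-NS were 4 members upward and 0 downward, against 7.53% and 2.17% of all genes. They were Pdk4, Angptl4, Acads and Fabp3. In MI-DAPA against MI-NS, 0 were past 2-fold upward and 2 downward, Fabp4 and Pdk4, against 0.408% and 4.68% of all genes. In MI-DAPA against Sham-NS, Pdk4 and Angptl4 were past 2-fold upward and 0 members downward, against 2.17% and 2% of all genes. With TMM factors Ppara was past 2-fold too, at -1.01 in MI-NS against Sham-NS and 1.02 in MI-DAPA against MI-NS, and Pdk4 was at -0.88 in the latter.

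**Figure D2:**
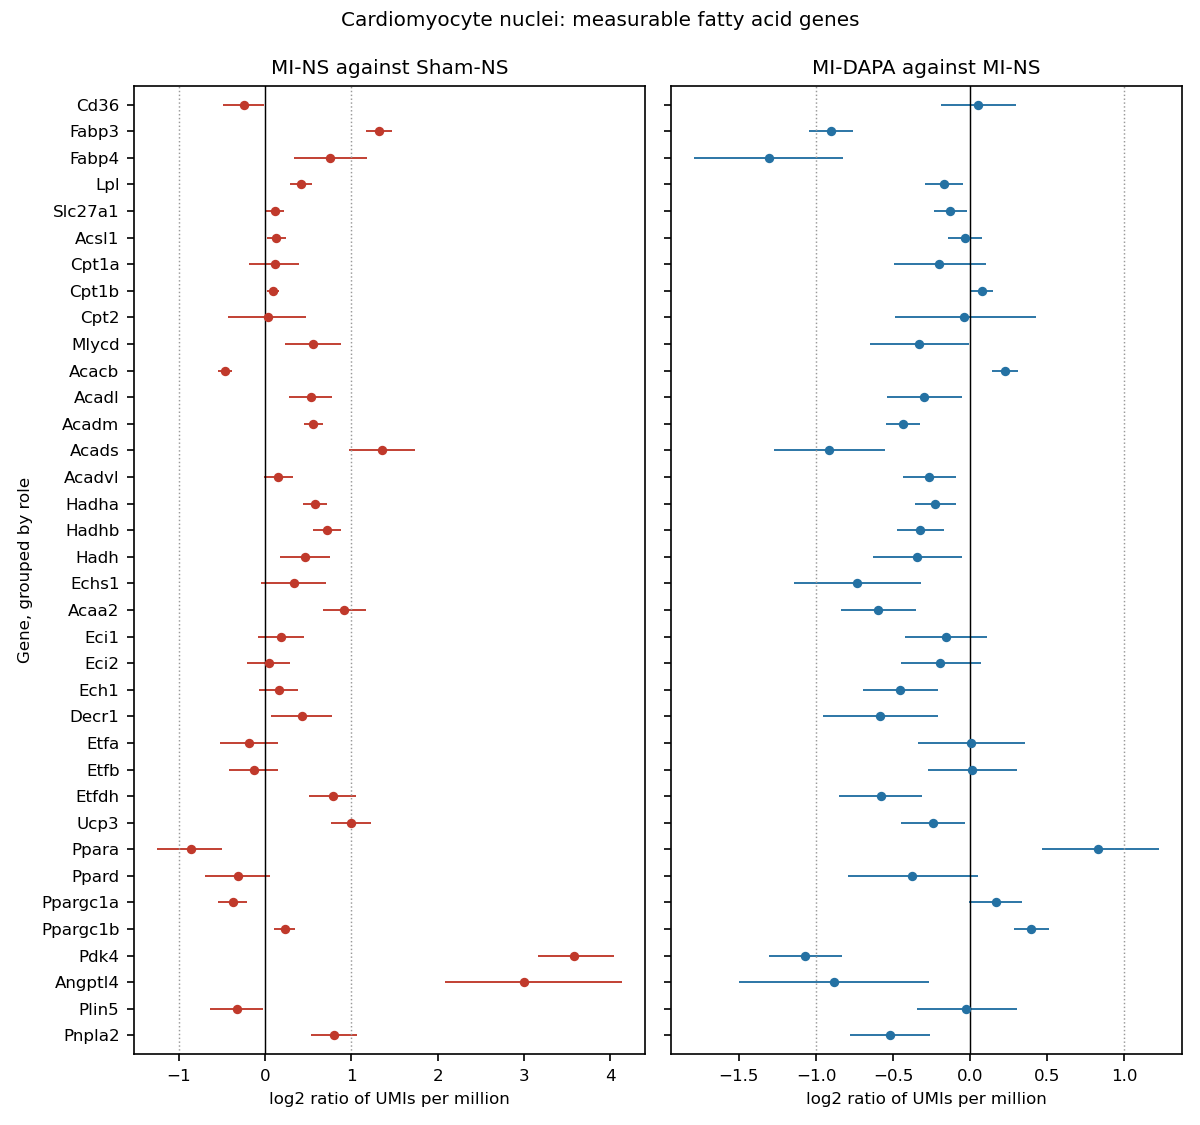
Log2 ratios of the 36 measurable members in cardiomyocyte nuclei, MI-NS against Sham-NS (left) and MI-DAPA against MI-NS (right, on another scale). Bars are 95% counting intervals and dotted lines mark 2-fold. Pdk4 and Angptl4 stand furthest to the right on the left side, and Fabp4 and Pdk4 lie past the left dotted line on the right side.

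Pdk4, a kinase that shuts off pyruvate dehydrogenase and so spares glucose, is a PPAR target (chr6:5483351-5496309, GRCm38). It stood at 12.7 CPM [9.47 to 16.7] in Sham-NS, 153 CPM [137 to 170.3] in MI-NS and 72.8 CPM [64.4 to 82.1] in MI-DAPA, intervals that do not overlap. The log2 ratio was 3.58 [3.16 to 4.04] for MI-NS against Sham-NS, -1.07 [-1.31 to -0.83] for MI-DAPA against MI-NS and 2.51 [2.08 to 2.98] for MI-DAPA against Sham-NS. It was seen in 2.85%, 22.4% and 13.1% of cardiomyocyte nuclei, and in 0.806%, 6.47% and 2.72% once each was thinned to 500 UMIs. Macrophage nuclei, thinned alike, showed it in 0.262%, 0.949% and 0.829% (median depths before thinning 1947 to 2260 UMIs in cardiomyocyte and 591 to 655 in macrophage nuclei). The same order held within the clusters, at 12.0, 155 and 66.9 CPM in cluster 0 and 20.4, 152 and 76.2 CPM in cluster 5.

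Angptl4 (chr17:33773750-33781830) stood at 2.74, 22.6 and 12.3 CPM in cardiomyocyte nuclei, on 11, 49 and 45 UMIs. Both infarct libraries were above Sham-NS, with log2 ratios of 2.99 [2.08 to 4.14] and 2.11 [1.19 to 3.26], and MI-DAPA was at -0.88 [-1.50 to -0.27] against MI-NS. MI-NS also held the adipocyte nuclei, in which Angptl4 was at 268 CPM. The cardiomyocyte level there was 8.43% of the adipocyte level. The 12 adipocyte markers together stood in cardiomyocyte nuclei at 4.80%, 3.13% and 3.21% of their adipocyte level in MI-NS. Most of these sums was Plin4, a droplet coat gene, at 569, 344 and 376 CPM in cardiomyocyte nuclei. Without Plin4, the others together stood at 0.0363%, 0.307% and 0.0596%, highest in MI-NS. In MI-NS, Plin4 was at 14.9% of its adipocyte level. The other markers seen in adipocyte nuclei were at 0.782% or less there, with Adipoq, Cidec, Lep and Tshr at 0. The part of free adipocyte RNA in Angptl4 was not tested.

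Fabp3 was at 155, 388 and 207 CPM, with MI-NS above both other libraries at log2 ratios of 1.32 [1.17 to 1.47] and, for MI-DAPA against MI-NS, -0.90 [-1.05 to -0.76]. In cluster 0 it was at 157, 353 and 212 CPM and in cluster 5 at 134, 394 and 204 CPM. The other carrier, Fabp4, had its largest difference in MI-DAPA against MI-NS, -1.30 [-1.79 to -0.83], but its cardiomyocyte level was 1.01% to 2.50% of that in adipocyte nuclei and far under that in endothelial nuclei, and the part of free RNA was not tested. Cd36 stood at 119, 101 and 104 CPM and Slc27a1 at 531, 574 and 525 CPM, and Slc27a1 changed sign with TMM factors in all 3 contrasts.

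The 9 genes of the beta oxidation spiral were all measurable, and MI-NS was the highest library for each, with medians of 0.56 against Sham-NS and, for MI-DAPA against MI-NS, -0.34. These signs held with TMM factors and around the median of all genes. On the CPM scale, the counting interval lay wholly on that side of 0 for 7 of 9 genes in the first contrast and 9 of 9 in the second. The intervals were not counted with TMM factors, which in the second contrast took off a log2 shift of -0.187. In MI-DAPA against Sham-NS, 7 were higher and Acadvl and Echs1 lower, with a median of 0.23. The nuclear transcript Malat1 was also highest in MI-NS in cardiomyocyte nuclei, with log2 ratios of 0.69 against Sham-NS and, for MI-DAPA against MI-NS, -0.61, and whether nuclear preparation has a part in the order was not tested.

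The acyl-CoA dehydrogenases take the first step, each for its own chain length. Acads, for short chains, stood at 24.9, 63.7 and 33.8 CPM, with log2 ratios of 1.35 [0.97 to 1.74] and -0.91 [-1.28 to -0.55]. Acadm, for medium chains, was at 366, 539 and 398 CPM, and Acadl, for long chains, at 79.8, 115 and 93.6 CPM. Acadvl, for very long chains, differed least, at 197, 218 and 182 CPM. MI-NS was the highest library for all 4.

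The later steps also had MI-NS as the highest library. Hadha was at 234, 351 and 300.3 CPM, and Hadhb at 172, 282 and 225 CPM. In both contrasts the intervals of these divergent neighbours overlapped: 0.58 [0.44 to 0.72] and 0.72 [0.56 to 0.87] for MI-NS against Sham-NS, and -0.23 [-0.36 to -0.09] and -0.32 [-0.48 to -0.17] for MI-DAPA against MI-NS. Acaa2, a thiolase that makes the final cut, was at 65.3, 123 and 81.6 CPM, with 0.92 [0.67 to 1.17] and -0.60 [-0.84 to -0.35]. Hadh and Echs1, the short-chain dehydrogenase and hydratase, were at 59.1, 81.3 and 64.1 CPM and at 36.7, 46.2 and 27.8 CPM.

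**Figure D3:**
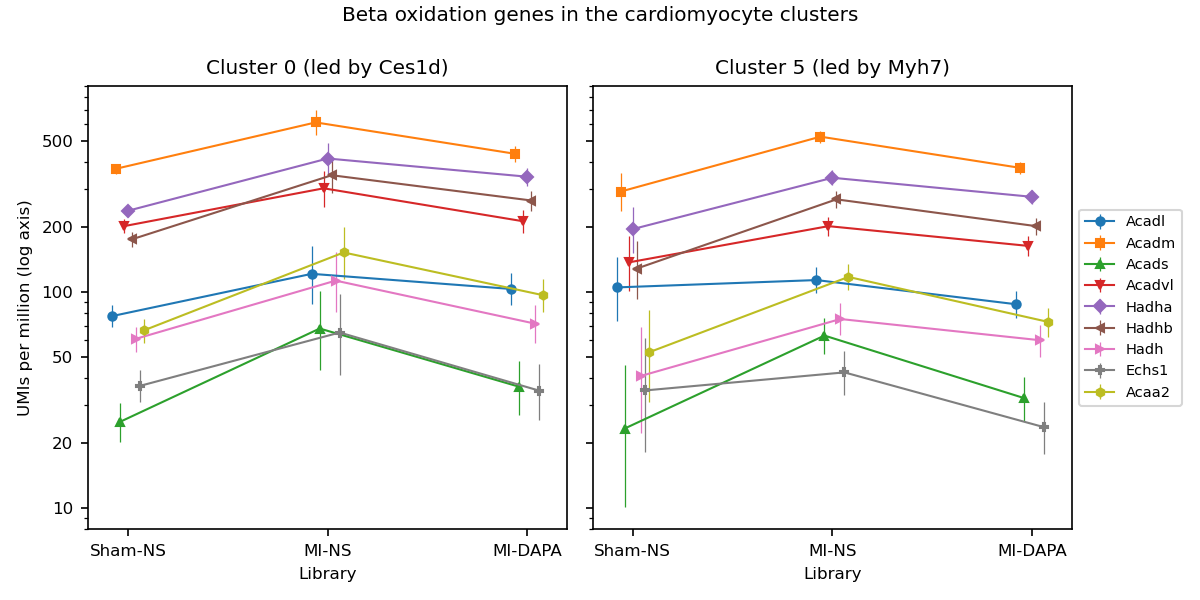
Levels of the 9 beta oxidation spiral genes (CPM, log axis) in cluster 0 and cluster 5 of the cardiomyocyte nuclei, by library. Points are levels, vertical bars are 95% counting intervals, and lines join the 3 libraries of a gene. MI-NS is the highest library for each gene in both clusters.

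Since the clusters held different shares of each library, the contrasts were read within each. Between MI-NS and Sham-NS the median log2 ratio over the measurable members was 0.59 in cluster 0 and 0.48 in cluster 5, against 0.28 in the whole class, and 0.13 and 0.07 over all measurable genes of each cluster. The same medians were -0.34 and -0.32 between MI-DAPA and MI-NS, and 0.15 and 0.21 between MI-DAPA and Sham-NS. At least 2-fold higher in MI-NS than Sham-NS were 7 of 35 members in cluster 0 and 9 of 35 in cluster 5, against 7.66% and 9.11% of all genes, and at least 2-fold lower 1 (Ppard, -1.23) and 0, against 4.75% and 2.49%. Cluster 0 had 271 nuclei in MI-NS and cluster 5 had 100 in Sham-NS, which limits both.

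Auxiliary enzymes for unsaturated chains also stood highest in MI-NS, with smaller differences, and Eci2 and Eci1 each changed sign with TMM factors in 1 contrast. In MI-DAPA against Sham-NS, 1 of these genes was higher and 3 were lower. Ech1, an isomerase, stood at 104, 116 and 85.1 CPM, and all 4 of these genes had MI-NS as the highest library. Of the electron transfer genes, Etfdh, which hands electrons to the respiratory chain, was at 59.1, 102 and 67.9 CPM, with 0.78 [0.51 to 1.05] and -0.58 [-0.85 to -0.31], while Etfa and Etfb, the subunits of the flavoprotein before it, had intervals that included 0 in all 3 contrasts. Mlycd, which removes malonyl-CoA, was at 44.6, 65.6 and 52.1 CPM.

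At the entry to mitochondria, Cpt1b had log2 ratios of 0.10 and 0.07, Cpt1a of 0.11 and -0.20, and Acsl1 of 0.13 and -0.04 in MI-NS against Sham-NS and MI-DAPA against MI-NS, and the first of these was below 0 for all 3 genes with TMM factors. Acacb was lower in MI-NS, at -0.46 [-0.54 to -0.39], but within cluster 0 it was at -0.08 [-0.23 to 0.07] and within cluster 5 at -0.23 [-0.41 to -0.05].

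Ucp3 stood at 76.6, 152 and 129 CPM, with MI-NS above Sham-NS by a log2 ratio of 0.99 [0.76 to 1.22] and MI-DAPA above Sham-NS by 0.75 [0.54 to 0.96]. Within cluster 0 it was at 78.5, 220.5 and 174 CPM and within cluster 5 at 55.5, 139 and 103 CPM, the same order. Pnpla2 was at 60.3, 105 and 73.4 CPM, highest in MI-NS. Plin5, which coats the droplets that Pnpla2 opens, was at 74.8, 59.6 and 58.6 CPM, highest in Sham-NS.

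The receptor Ppara differed in the direction opposite to Pdk4 and Angptl4. It was at 66.6, 36.5 and 65.2 CPM, lowest in MI-NS, with log2 ratios of -0.86 [-1.25 to -0.50] and 0.83 [0.46 to 1.22], and Sham-NS and MI-DAPA overlapped. Within cluster 5 these ratios were -0.86 [-1.58 to -0.05] and 0.80 [0.36 to 1.26], and within cluster 0, on 17 UMIs in MI-NS, they were -0.44 and 0.60 with intervals that included 0. Ppargc1a stood at 255, 196 and 220.1 CPM and Ppard at 48.9, 39.3 and 30.3 CPM, both highest in Sham-NS. Ppargc1b was highest in MI-DAPA, at 347, 406 and 534 CPM, with 0.40 [0.28 to 0.51] against MI-NS and 0.62 [0.52 to 0.72] against Sham-NS, and in cluster 0 and cluster 5 MI-DAPA was at 0.29 and 0.40 against MI-NS.

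**Figure D4:**
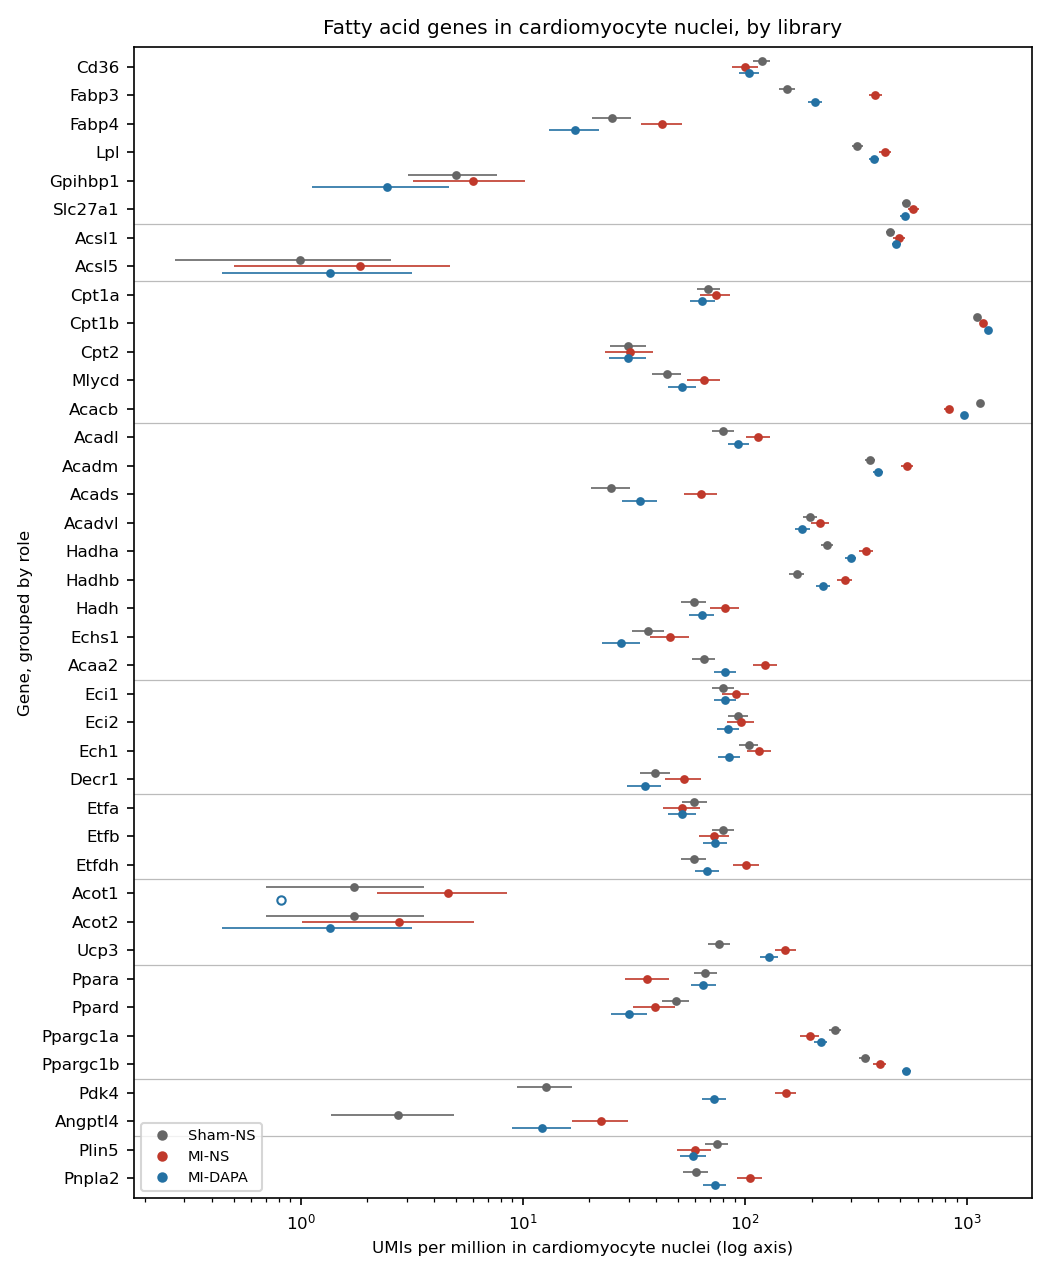
Level of each of the 40 members in cardiomyocyte nuclei (CPM, log axis) in the 3 libraries, in the order of the role groups, which grey lines separate. Points are levels, bars are exact Poisson 95% intervals, and the open circle marks a gene at the floor of 3 UMIs. Pdk4, Angptl4 and Fabp3 have Sham-NS on the left and MI-NS on the right, and Ppara has MI-NS on the left.

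Clock genes differed between the same libraries. In cardiomyocyte nuclei of MI-NS against Sham-NS, Arntl was at a log2 ratio of 3.08, Nr1d1 at 2.09, Per1 at -2.74 and Per2 at -3.41, and of 13 measurable clock genes 2 were at least 2-fold higher and 5 at least 2-fold lower. In MI-DAPA against MI-NS, 0 of 12 were past 2-fold in either direction. Whether the hour of collection or feeding bears on Pdk4, Angptl4 or other members was not tested.

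Beside the members, 59 other genes of fatty acid handling were listed. In MI-NS against Sham-NS, 50 were measurable, 26 higher and 24 lower (60.3% of all genes were higher), with a median of 0.06. At least 2-fold higher was 1 (7.53% of all genes) and lower were 5 (2.17%). The first was Pdp1, the phosphatase that reactivates pyruvate dehydrogenase, at 1.26. The 5 were Klf15 (-1.46), a transcription factor of cardiac lipid use, Plin3 (-1.29), a droplet coat protein, Acad10 (-1.15), Dgat2 (-1.06), which makes triglyceride, and Acsl6 (-1.05), the last named after its value was seen. Next highest were the lipase Lipe at 0.90, the AMP kinase subunit Prkag2 at 0.84 and the droplet protein Plin2 at 0.75.

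In MI-DAPA against MI-NS, 47 of the 59 were measurable, 20 higher and 27 lower (34.5% of all genes were higher). They ran from Pdp1 at -1.17 and Abhd5, the activator of Pnpla2, at -0.86 to Acad9 at 0.61 and Abcd3 at 0.41. Acadsb was at -0.79 and Pdk2, a relative of Pdk4, at -0.63. In MI-DAPA against Sham-NS, 49 were measurable, 18 higher and 31 lower (45.5% of all genes were higher). Klf15 at -1.28 and Plin3 at -1.23 were at one end and Prkag2 at 0.68 and Lipe at 0.41 at the other.

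In vascular endothelial nuclei the list did not differ in 1 direction, and Lpl was the member that differed most firmly. In MI-NS against Sham-NS, 25 members were measurable, 12 higher and 13 lower, with a median of -0.02 against 0.09 over all 6172 genes, 57.5% of which were higher. At least 2-fold higher was 1 (Acads, against 6.24% of all genes) and at least 2-fold lower 1 (Lpl, against 2.72%). In MI-DAPA against MI-NS, 11 of 21 were higher (48.3% of all genes), 1 of them at least 2-fold higher (Cpt1b, against 0.792%) and 0 at least 2-fold lower (against 3.48%). In MI-DAPA against Sham-NS, 10 of 24 were higher (54.3% of all genes), 0 of them at least 2-fold (against 1.91%), and 2 were at least 2-fold lower (Lpl and Acaa2, against 2.03%). The endothelial clusters were filled unequally too: cluster 1, led by Timp4 and Flt1, held 1461, 360 and 416 nuclei of the libraries, cluster 8, led by Prnd and Kit, 109, 485 and 479, and cluster 15, led by Sema3g and Hey1, 158, 87 and 76. In cluster 8, 16 of 18 vascular endothelial markers were at least 2-fold above the other nuclei, against 0 of the next-scoring set, of neutrophils. Cluster 8 had no endothelial marker among its 10 leading genes, and Kit is also a mast cell marker. Without it, the medians of the 3 contrasts were 0.02, 0.05 and -0.14, and Lpl was at -1.18 in MI-NS against Sham-NS and -1.03 in MI-DAPA against Sham-NS.

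Endothelial Lpl (chr8:68880491-68907448) stood at 425 CPM [389 to 464] in Sham-NS, 202 [169 to 239] in MI-NS and 193 [160.3 to 229] in MI-DAPA. The 2 infarct libraries overlapped and both lay below Sham-NS, at log2 ratios of -1.07 [-1.36 to -0.80] and -1.14 [-1.44 to -0.86]. The levels were 442, 195 and 222 CPM in cluster 1, 423, 213 and 179 CPM in cluster 8, and 281, 155 and 121 CPM in cluster 15, the last on 6 to 31 UMIs. In cardiomyocyte nuclei Lpl was higher in both infarct libraries, by 0.42 [0.29 to 0.54] and 0.25 [0.14 to 0.36]. In fibroblast nuclei it stood at 173, 163 and 166 CPM. Pericyte nuclei had 193, 106 and 146 CPM of Lpl, endocardial nuclei 159, 98.8 and 228 CPM, and macrophage nuclei 200.5, 253 and 209.6 CPM. The 9 cardiomyocyte genes read as free RNA moved in endothelial nuclei by medians of -0.66 and -0.18 in MI-NS and MI-DAPA against Sham-NS. The part of free RNA in endothelial Lpl was not tested.

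**Figure D5:**
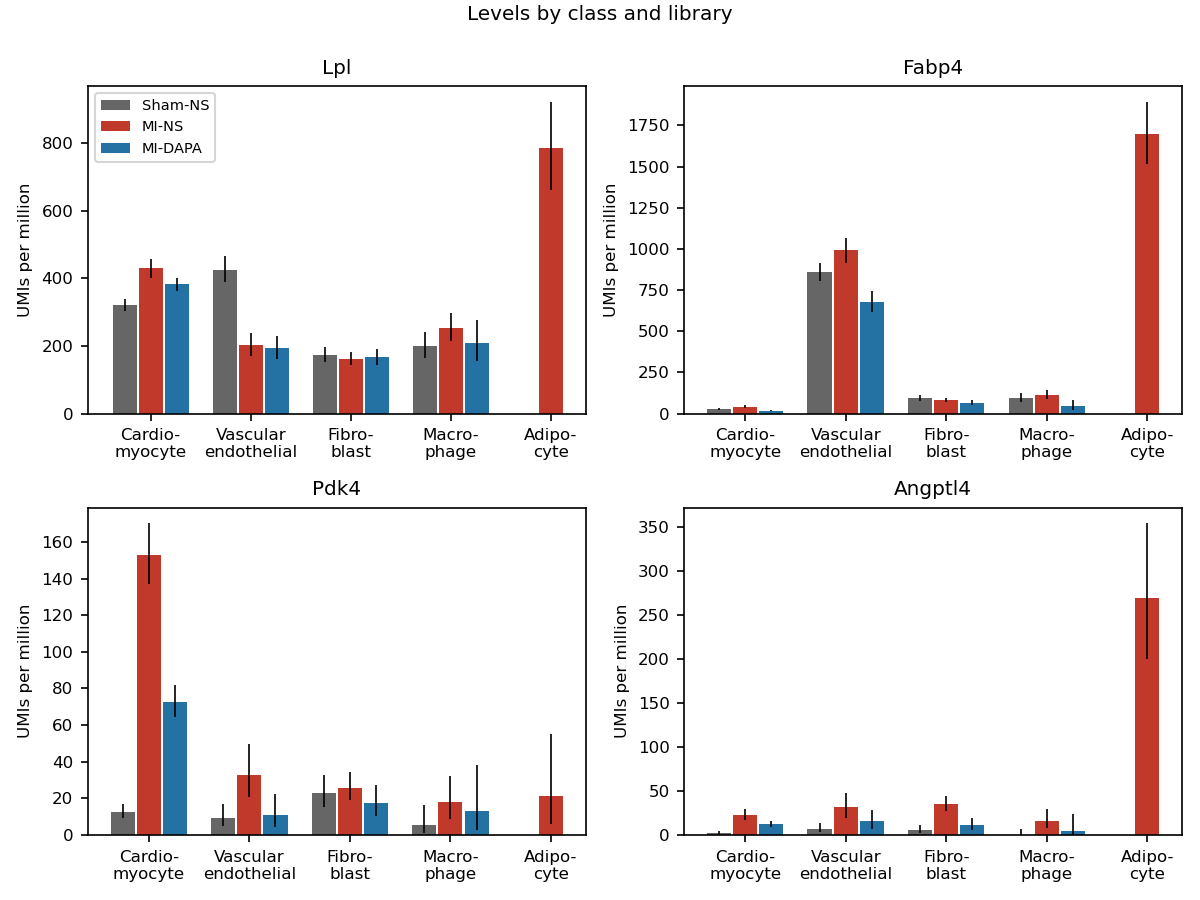
Levels of Lpl, Fabp4, Pdk4 and Angptl4 (CPM) in 5 classes by library; adipocyte nuclei are shown for MI-NS only. Bars are levels and vertical lines exact Poisson 95% intervals. Endothelial Lpl is highest in Sham-NS, cardiomyocyte Pdk4 is highest in MI-NS, and Fabp4 and Angptl4 are highest in adipocyte nuclei.

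Gpihbp1 and Cd36, partners of Lpl at the vessel wall, had intervals that included 0. Gpihbp1 had endothelial log2 ratios of -0.16 [-0.43 to 0.11] and -0.02 [-0.34 to 0.29] in MI-NS against Sham-NS and MI-DAPA against MI-NS, and Cd36 of -0.05 [-0.26 to 0.17] and 0.03 [-0.22 to 0.27]. Within cluster 1 and cluster 8 the intervals of both genes included 0 in these 2 contrasts as well. Fabp4 was lowest in MI-DAPA, at -0.55 [-0.73 to -0.37] against MI-NS, and at -0.67 in cluster 1 and -0.62 in cluster 8 but 0.50 [-0.33 to 1.34] in cluster 15. Pdk4 and Angptl4 were below 50 UMIs in endothelial nuclei in each contrast, at 9.47, 32.9 and 10.8 CPM and at 6.89, 31.4 and 15.4 CPM.

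The other members past 2-fold in endothelial nuclei rested on few UMIs. Acads was at 21.5, 47.8 and 27.7 CPM, with 1.15 [0.35 to 1.97] in MI-NS against Sham-NS, and Acaa2 at 43.0, 47.8 and 20.0 CPM, with -1.06 [-2.11 to -0.20] in MI-DAPA against Sham-NS. Acads in adipocyte nuclei of MI-NS was at 53.7 CPM and Acaa2 at 64.4 CPM. Cpt1b was at 1.07 [0.52 to 1.65] in MI-DAPA against MI-NS, while the 9 cardiomyocyte genes read as free RNA moved in the same nuclei by a median of 0.76, and by -0.66 in MI-NS against Sham-NS, where Cpt1b was at -0.62. The part of free RNA in this was not tested. All 3 calls were lost when classes were set by marker level (Acads 0.88, Acaa2 -0.77, Cpt1b 0.68). Cpt1b also fell short at 0.98 with clusters from variable genes that included the members, and Acaa2 at -0.75 with nuclei thinned to 500 UMIs.

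Fibroblast nuclei lay in nearly separate clusters by library: cluster 3, led by Gsta3 and Col6a6, held 1620, 43 and 205 of them, cluster 4, led by Col11a1 and Matn4, 12, 1327 and 482, and cluster 6, led by Scml4 and Vcan, 114, 666 and 657. Values for the whole class therefore also compare clusters. In MI-NS against Sham-NS, 34 members were measurable, 17 higher and 17 lower (58.7% of all genes were higher), with 2 at least 2-fold higher and 2 at least 2-fold lower, against 8.88% and 3.92% of all genes. Angptl4 was at 5.31, 34.9 and 10.9 CPM in fibroblast nuclei, with log2 ratios of 2.63 [1.59 to 4.09] and -1.63 [-2.70 to -0.77] in MI-NS against Sham-NS and MI-DAPA against MI-NS. The 12 adipocyte markers together stood in fibroblast nuclei of MI-NS at 0.349% of their adipocyte level, and the highest single one at 1.43%. Without Plin4, the others together stood at 0.0631%, 0.287% and 0.0758% in the 3 libraries. The part of free adipocyte RNA was not tested. Acads was at 1.07 in MI-NS against Sham-NS, as it was higher in cardiomyocyte and endothelial nuclei of that library. Ppargc1b was at -1.42 [-2.22 to -0.68] and Pnpla2 at -1.09 [-1.82 to -0.40], both in the direction opposite to cardiomyocyte nuclei. The difference between the classes was not tested. In MI-NS, Ppargc1b stood at 12.9 CPM in fibroblast nuclei against 406 CPM in cardiomyocyte nuclei. The 9 cardiomyocyte genes read as free RNA moved in fibroblast nuclei by a median of -0.61 in this contrast. The part of free cardiomyocyte RNA in both genes was not tested. In each of the 3 clusters, Sham-NS or MI-NS had 3 or fewer UMIs each of Angptl4, Acads, Ppargc1b and Pnpla2. That was too few to read MI-NS against Sham-NS within a cluster. Between MI-DAPA and MI-NS, Angptl4 was at -1.27 [-2.90 to -0.14] in cluster 4 and -1.97 [-4.12 to -0.49] in cluster 6, the latter on 4 and 18 UMIs. In fibroblast nuclei Pdk4 was at 22.8, 25.9 and 17.3 CPM.

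In macrophage nuclei 18 members were measurable in MI-NS against Sham-NS, 9 higher and 9 lower, while 2574 of all 4732 measurable genes were higher. At least 2-fold higher were 0 members and lower 1, against 257 and 103 of the 4732. The lower one was Acacb at -1.01, with 60.0, 29.4 and 56.8 CPM. In MI-DAPA against MI-NS, 11 were measurable, 4 higher and 7 lower, while 1918 of 3748 genes were higher. At least 2-fold higher was 1 and lower 1, against 54 and 156 of the 3748. The higher one was Cpt1b at 1.01, with 99.3, 58.8 and 118 CPM, and the lower one Fabp4. The cardiomyocyte genes read as free RNA moved in macrophage nuclei by medians of -0.23 in the first contrast and 0.31 in the second. The part of free RNA in macrophage Acacb and Cpt1b was not tested. Fabp4, a marker of lipid-laden macrophages as well as of endothelium, was at 95.6, 113 and 43.7 CPM in macrophage nuclei. MI-DAPA, on 10 UMIs, was at -1.31 [-2.49 to -0.40] against MI-NS. Levels were of like size in pericyte (127, 143 and 97.2 CPM) and fibroblast nuclei (93.3, 82.1 and 64.7 CPM). The part of free RNA in macrophage Fabp4 was not tested. Mesothelial nuclei, nearly all from MI-NS, had 70.6 CPM of Angptl4 in that library.

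Gene overlap bears on few members. No member overlapped another gene on its own strand in GENCODE M21, and 8 overlapped one on the opposite strand; strand use in counting is not given in the sources used here, so reads of such a pair could not be told apart. The partners of Fabp3 held 327 and 32 UMIs against 3375 for Fabp3, but for Acsl5 the partner Zdhhc6 held 531 against 447.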

How the data were processed

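The authors deposited matrices of UMI counts, 1 per library, made with Cell Ranger 6.0.1 per the file headers, and every deposited barcode had at least 500 UMIs. Per the submitters' processing notes the build was mm10 and Seurat was used. The reference release, the use of intronic reads and strand in counting are not given in the sources used here.

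Nuclei with at least 300 genes and at most 10% mitochondrial UMIs were kept. Scrublet in scanpy 1.11.5 called 0, 1 and 2 doublets, so it did not work, and of 25 clusters, 6 whose median Scrublet score passed 0.1 were set aside as mixed (10.5% to 15.6% of nuclei). Clusters came from 2000 variable genes per library, without the 40 members and the 59 other pathway genes, 30 components, 15 neighbours and Leiden (leidenalg 0.10.2) at resolution 1.0, and were named from 18 marker sets.

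UMIs were summed per class and library. Ratios are log2 of CPM with 0.5 UMI added, with exact conditional binomial 95% intervals, and levels have exact Poisson intervals. A gene needed 50 UMIs in the 2 sums together to be measurable, was called at 2-fold, and had a floor of 3 UMIs. Ratios were tested on simulated counts. TMM factors came from edgeR 4.0.16.

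The members, lists and rules were chosen with earlier results of these data known. Named genes were all members in 10 roles, with levels for those past 2-fold, those of highest level in a role and those higher in endothelial or adipocyte nuclei, and up to 4 highest and 4 lowest of the other pathway genes per contrast. Coordinates are 1-based on GRCm38, from GENCODE M21 and RefSeq GRCm38.p6. Alternatives were another nucleus filter, resolution 2.0, classes by marker level, mixed clusters kept, variable genes with the members, no UMI added, at least 200 UMIs, thinning to 500 UMIs and 1 cardiomyocyte cluster left out; 3 more were chosen after seeing the data.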

Additional observations from a re-analysis of the deposited data

How the results depend on the processing

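No paired analysis was possible because each group had 1 library. None of the gene ratios, counts or cardiomyocyte medians followed through these alternatives changed sign; gene signs that TMM factors turned are given with the results. Of the 3 endothelial medians 2 changed sign, lying between -0.28 and 0.04 for MI-NS against Sham-NS and between -0.08 and 0.08 for MI-DAPA against MI-NS. The median of the members in cardiomyocyte nuclei, MI-NS against Sham-NS, was 0.59 without the Myh7-led cluster (0.28 with it). With TMM factors the members at least 2-fold higher in cardiomyocyte than in vascular endothelial nuclei numbered 26 in place of 17, those higher than in adipocyte nuclei 18 in place of 10 and those lower 4 in place of 7. At a minimum of 200 UMIs, with 23 members measurable, the last count was 4. No share of all genes stands beside the TMM counts between classes. Of the other values for these comparisons 106 stayed within the limits set for a change. For single genes, 127 values stayed and 6 moved: Fabp3 in MI-NS against Sham-NS lay between 0.90 (thinned to 500 UMIs) and 1.54 (Myh7-led cluster alone), and Pdk4 between 2.80 and 3.74, in MI-DAPA against MI-NS between -1.42 and -0.88 and in MI-DAPA against Sham-NS between 1.75 and 2.58. With TMM factors, MI-DAPA against MI-NS had 1 member in place of 2 at least 2-fold lower and 1 in place of 0 at least 2-fold higher (Ppara), and MI-NS against Sham-NS had 1 in place of 0 at least 2-fold lower (Ppara). The Myh7-led cluster alone, the endothelial class without cluster 8 and a denominator without mitochondrial genes and Malat1 were chosen after seeing the data. With 1 library per group, depth limits only the counting intervals; differences between hearts are not measured.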
